A study of Mus musculus with 8 samples.

Results

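The wild type posterior mouse embryo was followed from 4/5 to 7/8 somites, in tissue cut out behind the youngest somite and in front of the allantois, whose base was the landmark. These values are the wild type channel of each of 8 two-colour Agilent arrays, so 8 of the 16 channels and 2 of the 4 RNA pools of the series were used. Embryos of the strain C57Bl6J/CBA were pooled, 20 per genotype and stage, which gave 1 wild type pool at 4/5 somites and 1 at 7/8 somites. Each wild type pool was hybridised on 4 arrays together with the Cdx2 null mutant pool of the same stage. Within a stage the wild type pool carried Cy5 on arrays 1 and 3 and Cy3 on arrays 2 and 4. The array titles carry the word bio1 for arrays 1 and 2 and tech1 for arrays 3 and 4 of each stage. These 2 sets are called slide 1 and slide 2 here, a name taken from the titles alone. Dye and slide in this sense were balanced between the stages. The wild type groups carried no named allele, transgene or treatment. Because the design text of the series gives 1 pool per genotype and stage, the 4 arrays of a stage were treated as technical repeats, despite the title word bio1. No p-value was computed, and every SD measures array error and not the spread between embryos.

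The posterior growth zone is the region around the node, the remaining primitive streak and the later tail bud from which the trunk and tail are laid down. Axial progenitors there are kept by Wnt and FGF signals and by the T and Cdx transcription factors. They supply presomitic mesoderm and neural tube, while more posterior Hox genes come on in sequence as the axis extends. Retinoic acid made by the somites and anterior presomitic mesoderm opposes FGF at the front of this zone. Visceral endoderm, the allantois, early vessels and primitive red cells lie beside it at these stages.

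The labelled tissue was checked against its markers. The genes T, Cdx2, Cdx4, Wnt3a, Fgf8, Cyp26a1, Tbx6 and Msgn1, which mark the caudal embryo, were well above background on 4 of 4 arrays at both stages. The head genes Otx2 and En1 were above background on 0 arrays, Six3 on 1, and the heart gene Nkx2-5 on 1 array per stage. Myl7, a myosin light chain of heart muscle, was above background on all 8 arrays, with mean log2 intensities of 10.39 and 10.06. In each channel the share of probes detected well above background was 47.1% to 56.9%, and wild type channels correlated across probes at r = 0.986 to 0.996.

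Of 15206 genes measured, 12800 of them with a symbol, 241 (1.58%) were called. A call required stage means at least 1.5-fold apart and, within each dye, both 7/8 somite channels on the same side of both 4/5 somite channels. At 7/8 somites 112 genes (0.737%) were higher and 129 (0.848%) lower, and below "rose" and "fell" are used only of such genes. At 2-fold, 42 genes (0.276%) were called, 16 higher (0.105%) and 26 lower (0.171%). The median difference over all genes was 0.00 (log2, 7/8 minus 4/5 somites) and the median size 0.12, against a median SD of 0.16 over the 4 differences between arrays of matched dye and slide. Of the 241 calls, 11 had an SD above 1, among them Htra1, Nrbf2, Snx3, Tox4 and Cdkn2aipnl, where 1 array stood far below the others. Without that array Htra1 was still called and the other 4 were not. Among the genes called higher were the ribosomal RNA entry Rn18s (0.74 ± 0.21) and the neighbouring chromosome 17 entries NAP112463-1 (0.88) and BC127072 (0.83). In the null pools these read 0.66, 0.62 and 0.80. The part of the pools' ribosomal RNA content in the other results was not tested. In bulk tissue, fewer cells of a type and less RNA per cell cannot be told apart.

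**Figure D1:**
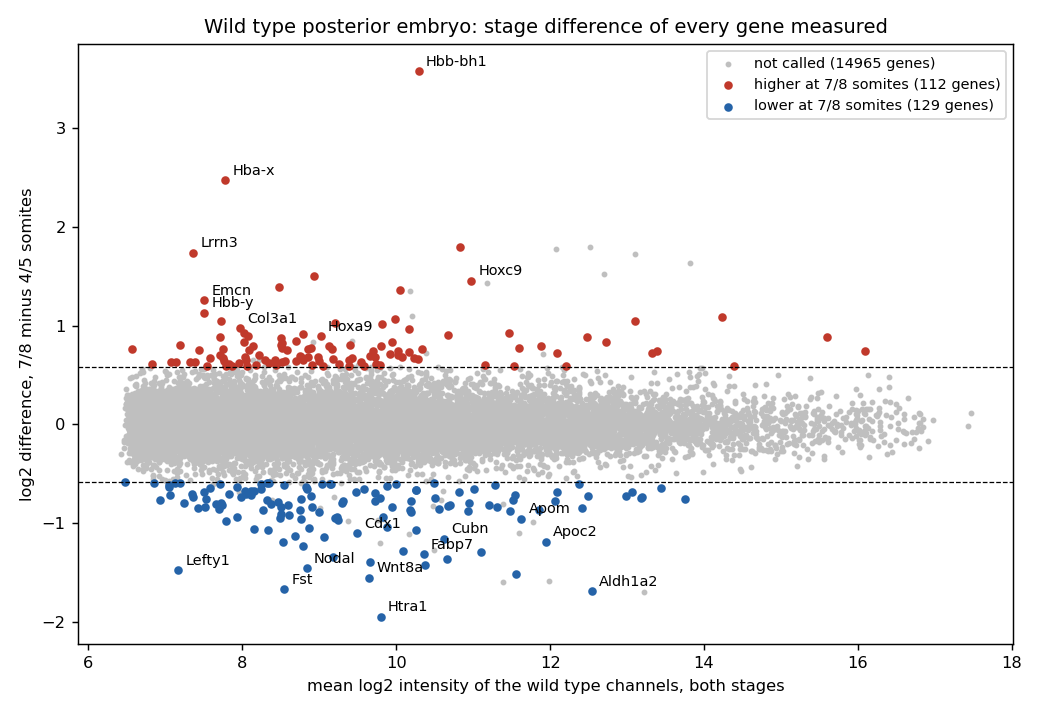
Each point is 1 of 15206 genes, with the mean log2 intensity of its wild type channels on the horizontal axis and the log2 difference (7/8 minus 4/5 somites) on the vertical axis; dashed lines mark 1.5-fold. Red points are the 112 genes called higher and blue points the 129 called lower at 7/8 somites, and the grey points beyond 1 or -1 are genes such as Rpl4 whose mean rests on 1 array.

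The embryonic globins Hbb-bh1 and Hba-x showed the 2 greatest rises. Hbb-bh1, a beta-like globin of primitive red cells (probe on chromosome 7 at 110990327 to 110990386, minus strand, build mm9), was at 8.52, 8.45, 8.61 and 8.43 on arrays 1 to 4 of 4/5 somites. It was at 12.11, 12.09, 12.10 and 12.01 on those of 7/8 somites, all 4 far above every 4/5 somite array, a difference of 3.57 ± 0.06 (SD of 4 matched differences) or 11.9-fold. A second probe that overlaps the same stretch gave 3.70 ± 0.13. Hba-x, the embryonic zeta globin (chromosome 11 at 32177668 to 32177727), was at 6.64, 6.49, 6.63 and 6.43 at 4/5 somites, where only 2 of 4 arrays were above background, and at 8.80, 9.06, 9.05 and 9.15 at 7/8 somites. That difference was 2.47 ± 0.24, and since the early level lies at the detection limit its size is uncertain (4.38 with the scanner's processed signals). Hbb-y, the epsilon-like embryonic globin, rose by 1.13 ± 0.23, from 6.66, 7.04, 6.99 and 7.07 to 8.04, 7.86, 8.19 and 8.18, and by 1.75 with the processed signals. The arrays of the 2 stages did not overlap for any of these 3 genes, which held for 230 of the 241 called genes.

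Promoters from RefSeq (assembly GRCm38.p6), the 250 bases before each gene's start, are shown for the 2 embryonic globins that the table holds, because these genes rose together. Capitals mark matches, on either strand, to the GATA motif, the CACCC box, the CCAAT box and the TATAA box, and no 2 matches overlapped. A run of TATC is GATA on the other strand. The first sequence is chr11:32276350-32276599 on the plus strand and the second chr7:103853208-103853457 on the minus strand.
Hba-x: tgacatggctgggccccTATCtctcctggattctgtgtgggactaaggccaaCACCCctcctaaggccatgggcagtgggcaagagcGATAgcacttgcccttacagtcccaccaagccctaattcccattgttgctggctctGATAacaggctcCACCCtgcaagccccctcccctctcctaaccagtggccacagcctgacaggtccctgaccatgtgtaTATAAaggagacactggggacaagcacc
Hbb-y: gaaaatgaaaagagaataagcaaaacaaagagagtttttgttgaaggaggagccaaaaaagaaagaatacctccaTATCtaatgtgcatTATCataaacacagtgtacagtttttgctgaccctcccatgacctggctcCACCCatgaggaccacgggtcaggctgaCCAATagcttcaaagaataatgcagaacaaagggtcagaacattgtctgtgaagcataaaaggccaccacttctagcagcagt
Hba-x held 3 GATA matches, 2 CACCC and 1 TATAA, and Hbb-y held 2 GATA, 1 CACCC and 1 CCAAT. Of 27025 promoters of this length, 54.1% held GATA, 51.3% CACCC, 34.5% CCAAT and 23.5% TATAA on either strand, so such matches are common and are given as a description only.

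Of 16 genes listed for primitive red cells, 12 were measured, 6 rose and 0 fell, with a median difference of 0.42 against 0.00 over all genes. The adult-type alpha globins Hba-a1 and Hba-a2, near-identical copies that a probe may not tell apart, rose by 0.69 ± 0.13 and 0.60, the latter a call lost on leaving out any of 4 arrays. Tal1, a transcription factor of blood and vessel precursors, rose by 0.64 ± 0.47, but it was at 7.52 on array 3 of 4/5 somites against 8.70, 8.58 and 8.10 on the others. Without array 3 or array 4 of 4/5 somites or array 1 of 7/8 somites Tal1 was not called. Other red cell genes were not called: Slc4a1, the band 3 anion exchanger, read 0.22, Alas2, the erythroid enzyme that starts haem synthesis, -0.05, and the erythropoietin receptor gene Epor -0.05. Klf1, the erythroid Kruppel-like factor, was above background on 0 of 4 arrays at 4/5 somites and 3 of 4 at 7/8 somites. Its difference of 0.16 ± 0.19 was smaller than its SD and was not called. The summed linear intensity of the list was 2730 to 3000 on the 4/5 somite arrays and 7960 to 8070 on the 7/8 somite arrays, mostly through the globins.

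Endothelial genes were mostly higher at 7/8 somites. Of 15 measured of 16, 5 rose and 0 fell, and the median was 0.51. Above 0 were 14 differences, beside 7537 of 15206 over all genes. Among the 5 is Tal1, counted with the red cell rises as well, whose call was lost without any of 3 arrays. Emcn, an endothelial sialomucin, rose by 1.26 ± 0.30, from 6.81, 7.01, 6.74 and 6.96 to 8.19, 7.88, 8.32 and 8.16, with no overlap, and by 2.14 with the processed signals. Kdr, the VEGF receptor of vessel precursors, rose by 0.68 ± 0.08, from 9.12, 8.98, 9.21 and 9.03 to 9.87, 9.65, 9.92 and 9.60. Cldn5, the tight junction claudin of endothelium, rose by 0.69 ± 0.08, and Cdh5, the endothelial cadherin, by 0.62 ± 0.32, a call lost without any of 3 arrays. Lyve1 (0.52), Etv2 (0.51), Plvap (0.51) and Sox7 (0.50) lay under the 1.5-fold limit of 0.585, and Flt1, the other VEGF receptor measured, was at -0.21. The number of endothelial genes called was 3 without array 3 or array 4 of 4/5 somites. Lyl1, a relative of Tal1 that is on neither list, rose by 0.91 ± 0.18. The summed intensity of the endothelial list went from 6060 to 6380 up to 8180 to 9400, alongside the red cell list above, and the part of either cell type in the other's result was not tested.

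**Figure D2:**
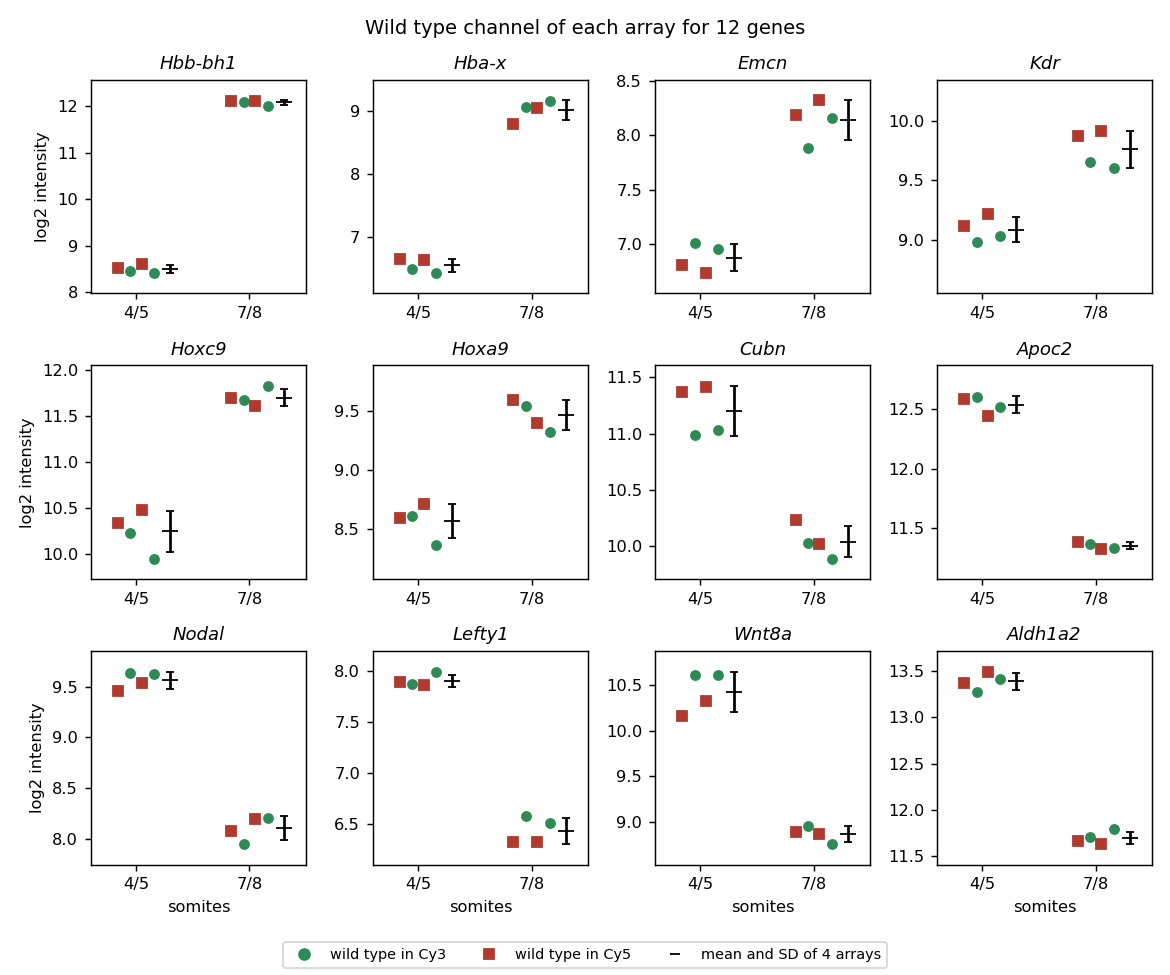
Log2 intensity of the wild type channel on each array for 12 genes at 4/5 and 7/8 somites, 1 panel per gene with its own vertical range. Green circles are Cy3 and red squares Cy5 channels, bars give the mean and SD of 4 arrays, and the arrays of the stages do not overlap in any panel.

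Many visceral endoderm and yolk sac genes were lower at 7/8 somites. This epithelium covers the early embryo, takes up maternal proteins and secretes lipoproteins. Of 19 measured of 20, 0 rose and 9 fell, and the median was -0.56. Apoc2, an apolipoprotein that activates lipoprotein lipase (chromosome 7 at 20257027 to 20257086), was at 12.59, 12.61, 12.45 and 12.52 at 4/5 somites and at 11.38, 11.37, 11.33 and 11.34 at 7/8 somites, a fall of 1.19 ± 0.05 on the log2 scale. Cubn and Amn encode the 2 chains of the cubilin-amnionless endocytic receptor. Cubn was at 11.36, 10.99, 11.42 and 11.03 and then at 10.23, 10.03, 10.02 and 9.89, a difference of -1.16 ± 0.18. Amn was at 9.64, 9.68, 9.81 and 9.79 and then at 8.79, 8.82, 8.68 and 8.74, a difference of -0.97 ± 0.14. All 7/8 somite arrays were below all 4/5 somite arrays for these 3 genes.

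Their promoters, from the same RefSeq table, are shown because the genes fell together. They lie at chr7:19677942-19678191 on the minus strand (Apoc2), chr2:13491877-13492126 on the minus strand (Cubn) and chr12:111270846-111271095 on the plus strand (Amn). Capitals mark CAAAG, the core bound by HNF4-type receptors, and GTTAAT, the core bound by HNF1 factors, and the GATA motif, each on either strand.
Apoc2: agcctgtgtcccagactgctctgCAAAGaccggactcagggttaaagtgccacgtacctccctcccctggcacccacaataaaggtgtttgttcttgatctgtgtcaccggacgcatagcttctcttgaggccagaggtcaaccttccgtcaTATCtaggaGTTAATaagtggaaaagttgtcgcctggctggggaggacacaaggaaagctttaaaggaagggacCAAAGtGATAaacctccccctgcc
Cubn: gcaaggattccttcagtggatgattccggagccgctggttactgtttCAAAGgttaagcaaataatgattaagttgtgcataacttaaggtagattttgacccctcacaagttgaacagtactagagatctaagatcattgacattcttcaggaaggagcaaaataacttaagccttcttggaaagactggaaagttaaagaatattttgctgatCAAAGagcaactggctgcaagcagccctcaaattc
Amn: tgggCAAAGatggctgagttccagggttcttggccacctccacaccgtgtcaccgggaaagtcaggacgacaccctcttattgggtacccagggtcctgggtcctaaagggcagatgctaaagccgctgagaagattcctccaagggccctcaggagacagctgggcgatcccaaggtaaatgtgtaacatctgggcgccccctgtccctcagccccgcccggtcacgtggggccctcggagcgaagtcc
Apoc2 held 2 CAAAG, 1 GTTAAT and 2 GATA matches, Cubn 2 CAAAG and Amn 1 CAAAG. Of all 27025 promoters, 48.8% held CAAAG and 6.52% held GTTAAT.

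Among the other visceral endoderm genes Apom, a carrier of sphingolipid in plasma, fell by 0.95 ± 0.16, Apoe by 0.75, Apoa1 by 0.69 and the fibrinogen chain gene Fgb by 0.60, a call lost without array 4 of 4/5 somites or array 1 of 7/8 somites. Dab2, an adaptor of endocytosis, read -0.78 ± 0.18, while its other, much dimmer probe read -0.05. Rbp4, the plasma carrier of retinol, fell by 0.72 ± 0.12. Afp (0.10), the transthyretin gene Ttr (-0.25) and the megalin gene Lrp2 (0.12) were not called, so the list did not move as a block. Its summed intensity was 67100 to 70800 at 4/5 somites and 48400 to 54200 at 7/8 somites, and the median was -0.61 on slide 1 and -0.55 on slide 2.

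Nodal and the Nodal inhibitors Lefty1 and Cer1 fell, in a pathway that sets left and right in the early somite embryo. Nodal, the ligand, was at 9.46, 9.64, 9.54 and 9.62 at 4/5 somites and at 8.08, 7.95, 8.19 and 8.20 at 7/8 somites, a difference of -1.46 ± 0.16. Lefty1, a secreted inhibitor of Nodal, was at 7.89, 7.88, 7.87 and 7.99 and then at 6.32, 6.57, 6.32 and 6.51. Only 1 of 4 arrays was above background for Lefty1 at 7/8 somites, so its difference of -1.48 ± 0.12 has an uncertain size (-2.86 with the processed signals). Cer1, another secreted inhibitor of Nodal, fell by 0.72 ± 0.14 with 2 of 4 arrays above background at the later stage. Lefty2 (-0.37), the Nodal antagonist gene Dand5 (-0.13), the co-receptor gene Tdgf1 (-0.08) and the effector gene Foxh1 (0.03) were not called.

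Of 21 genes of the BMP and TGF-beta list measured, 0 rose and 2 fell, both of them in the Nodal branch, and the median was 0.00. The BMP ligand genes Bmp4 (0.14), Bmp7 (0.29) and Bmp2 (0.00) and the inhibitor genes Nog (0.14) and Chrd (0.07) were not called. Fst, which encodes follistatin, a secreted binder of activin, stood on the progenitor and somite lists. It was at 9.29, 9.33, 9.41 and 9.49 and then at 7.74, 7.70, 7.78 and 7.62, a fall of 1.67 ± 0.14 on the log2 scale or 3.18-fold.

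Of 11 node and notochord genes measured, 0 rose and 2 fell, Cer1 and the ciliary gene Cfap126 (-0.70 ± 0.23). The notochord genes Shh (0.26), T (-0.26) and Foxa2 (-0.14) and the ciliary gene Tekt1 (-0.10) were not called. Foxj1, the regulator of motile cilia, was above background on 3 of 4 arrays at 4/5 somites and 0 of 4 at 7/8 somites. Its difference of -0.36 ± 0.16 was not called. Dynlrb2, a dynein light chain gene outside the list, fell by 1.23 ± 0.18, and its other probe by 0.73 ± 0.22.

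Aldh1a2, which encodes the main retinoic acid synthesising enzyme of the trunk (chromosome 9 at 71143931 to 71143990), had the greatest fall that did not rest on 1 array. It was at 13.37, 13.27, 13.49 and 13.41 at 4/5 somites and at 11.67, 11.71, 11.63 and 11.79 at 7/8 somites. The difference was -1.69 ± 0.13, or 3.22-fold, and no array overlapped. Of 14 retinoic acid genes measured, 0 rose and 2 fell, Aldh1a2 and Rbp4, with a median of -0.12. Cyp26a1, which encodes the enzyme that clears retinoic acid in the tail end, was at 11.71, 11.66, 11.91 and 11.62 and then at 11.84, 12.11, 11.86 and 12.06, a difference of 0.24 ± 0.24 with overlapping arrays. The response genes Rarb (-0.14), Dhrs3 (-0.35) and Stra8 (-0.45) were not called. Rxrg, a retinoid X receptor gene outside the list, fell by 1.07 ± 0.19.

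Among Wnt ligands Wnt8a, expressed in the streak region of the early embryo, fell by 1.55 ± 0.26, from 10.15, 10.61, 10.32 and 10.60 to 8.89, 8.95, 8.87 and 8.75. Wnt3a, the ligand that keeps axial progenitors, was at 12.17, 12.23, 12.17 and 12.38 and then at 11.65, 11.83, 11.69 and 11.76. The arrays did not overlap, yet the difference of -0.50 ± 0.09 was under the 1.5-fold limit. Rnf43, a ubiquitin ligase that removes Wnt receptors, rose by 0.61 ± 0.05, a call kept on leaving out 6 of the 8 arrays in turn. Of 24 Wnt genes measured, 1 rose and 1 fell, with a median of 0.01. The target and feedback genes Axin2 (0.00), Lef1 (-0.01), Notum (0.13) and Sp5 (-0.52) and the Wnt enhancer gene Rspo3 (-0.51) were not called.

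In the FGF list 0 of 17 measured genes rose and 0 fell (20 listed), with a median of -0.07. Fgf8, the FGF ligand of the tail end, was at 12.81, 12.97, 12.93 and 13.02 and then at 12.90, 13.13, 12.84 and 13.12, a difference of 0.07 ± 0.11. Fgf17 (0.26), Fgf18 (0.48), Fgf15 (-0.50) and the feedback genes Spry2 (-0.18) and Dusp6 (0.12) were not called. Fgf4 did not pass the filter on dim probes. Fgf9, an FGF ligand gene outside the list and picked out after its value was seen, rose by 0.75 ± 0.12.

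Of the 3 caudal homeobox genes, Cdx1 fell by 1.1 ± 0.17. It was at 9.91, 9.97, 10.10 and 10.15 at 4/5 somites and at 8.99, 8.99, 8.87 and 8.90 at 7/8 somites. Cdx2 was at 11.52, 11.49, 11.66 and 11.39 and then at 11.42, 11.51, 11.30 and 11.36, a difference of -0.12 ± 0.17. Cdx4 differed by 0.19 ± 0.13. For Cdx2 and Cdx4 the arrays of the stages overlapped.

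Among axial progenitor and streak regulators, 20 measured of 23, 14 differences were below 0, beside 7636 of 15206 over all genes. The median was -0.12, against a median size of 0.12 over all genes. Of the 20, 0 rose and 3 fell. Beside Fst these were Mesp1, a marker of nascent mesoderm, at -0.94 ± 0.14 (other probe -1.18 ± 0.16), and Pou5f1, a pluripotency gene, at -0.59 ± 0.28 (a call kept on leaving out 4 of the 8 arrays in turn). Nkx1-2, a marker of the progenitor-bearing epiblast beside the streak, was at 10.76, 10.67, 10.64 and 10.83 and then at 10.19, 10.13, 10.11 and 10.24. Its difference of -0.56 ± 0.03 was just under the limit, and its dimmer probe, at -0.63 ± 0.15, was just over it. T, the mesoderm T-box gene, was at 11.42, 11.37, 11.53 and 11.46 and then at 11.19, 11.15, 11.25 and 11.15, a difference of -0.26 ± 0.04 without overlap. Sox2, of the neural lineage, was higher by 0.42 ± 0.13 without reaching 1.5-fold. Gdf11, a ligand of the trunk-to-tail transition, differed by 0.06 ± 0.08.

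Presomitic mesoderm and clock genes showed 0 rises and 3 falls among 18 measured, and the falls were Aldh1a2, Mesp1 and Cer1. Of the 18 differences 9 were above 0 and 9 below, and Mesp2 (0.36 ± 0.12) and Hes5 (0.58) were not called. The clock genes Hes7 (0.17 ± 0.24) and Lfng (0.17 ± 0.19), the Notch ligand gene Dll1 (-0.07), and the presomitic regulators Tbx6 (-0.29 ± 0.20) and Msgn1 (-0.22 ± 0.15) were not called. Of 7 somite genes measured of 15, Fst fell, and Tcf15 (0.51), Foxc1 (0.34) and Meox1 (-0.15) were not called. The median of the presomitic list was -0.02 and that of the somite list 0.07.

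Hox genes, which give cells their position along the axis, were taken by paralogue group. Of 14 measured in groups 5 to 9, 5 rose and 0 fell (median 0.20), and of 4 measured in groups 10 to 13 none was called, with all 4 differences between 0.29 and 0.34. Hoxc9 (chromosome 15 at 102814735 to 102814794) was at 10.33, 10.23, 10.47 and 9.95 and then at 11.69, 11.68, 11.61 and 11.83, a rise of 1.46 ± 0.31. Hoxa9 rose by 0.89 ± 0.14, from 8.59, 8.61, 8.71 and 8.37 to 9.59, 9.54, 9.40 and 9.32. Hoxa7 rose by 0.77 ± 0.20, Hoxc6 by 0.63 ± 0.20 and Hoxd8 by 0.60 ± 0.12. For Hoxc6 the arrays of the stages overlapped, and its call was lost without array 1 of either stage. The Hoxd8 call was lost without any of 3 arrays. Hoxb9, at 0.58 ± 0.18, lay just under the limit although its arrays did not overlap. The count in groups 5 to 9 was 3 without array 1 of 7/8 somites.

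Within the same groups 4 B cluster genes and Hoxa5 (-0.28) read below 0 without being called: Hoxb5 at -0.45, Hoxb6 at -0.40, Hoxb7 at -0.18 and Hoxb8 at -0.40 ± 0.23. Hoxb1 differed by -0.15 ± 0.07. Hoxa10 was higher by 0.34 ± 0.07 and Hoxd10, above background on 1 of 4 arrays at 4/5 somites and 4 of 4 later, by 0.32 ± 0.15. In groups 10 to 13 the other 8 of the 12 genes did not pass the filter. Hoxc8 differed by 0.14 ± 0.18 near the detection limit.

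**Figure D3:**
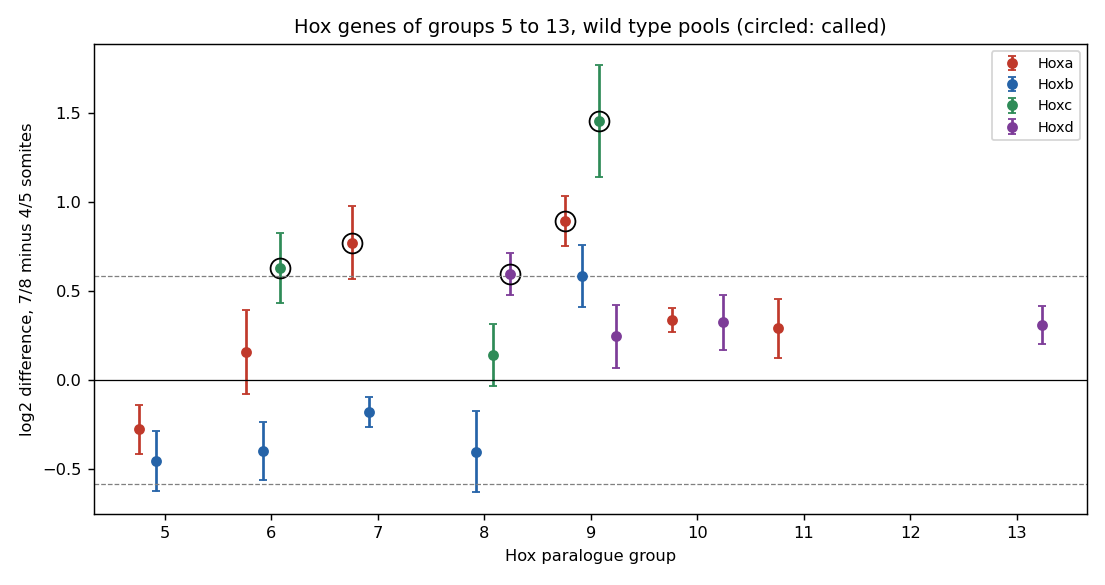
Stage difference of each Hox gene detected in groups 5 to 13 (log2, 7/8 minus 4/5 somites) by paralogue group and cluster, with the SD of 4 matched differences as error bars and dashed lines at 1.5-fold. Circled points are the called genes Hoxc6, Hoxa7, Hoxd8, Hoxa9 and Hoxc9, which rose, while Hoxb5 to Hoxb8 lie below 0.

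Some matrix genes of mesenchyme rose. Of 27 collagen, laminin and matrix genes measured, 4 rose and 0 fell, and the median was 0.18. Above 0 were 21 differences, beside 7537 of 15206 over all genes. Col3a1, a fibrillar collagen, rose by 0.97 ± 0.23, from 7.56, 7.41, 7.73 and 7.24 to 8.42, 8.51, 8.43 and 8.45. Postn, the matricellular protein periostin, rose by 0.89 ± 0.05, and Col1a1 by 0.68 ± 0.05, though a dimmer probe of Col1a1 read 0.09. Hapln1, which links hyaluronan to proteoglycan, rose by 0.68 ± 0.20, with 0.32 at its other probe. The basement membrane genes Lama1 (0.22), Lamb1 (-0.21), Lamc1 (0.23), Col4a1 (-0.37) and Col4a2 (0.27) were not called.

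Of 9 allantois genes measured of 12, 2 rose, Postn and Pitx1, and the median was 0.34. Pitx1, a homeobox gene of the hindlimb and caudal lateral mesoderm, rose by 0.59 ± 0.18, a call kept on leaving out only 4 of the 8 arrays in turn. Hand1 (0.01), Tbx3 (-0.25), Itga4 (0.34) and Snai2 (0.41) were not called. In the lateral plate list 1 of 10 measured rose, Prrx1, a homeobox gene of lateral plate mesenchyme (0.76 ± 0.13, other probes 0.63 and 0.59), and 0 fell. The dissection ended at the base of the allantois, and how much allantois each pool held was not tested.

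In gut endoderm 1 of 20 genes rose and 2 fell. The simple keratin gene Krt19 rose by 0.60 ± 0.20, a call kept on leaving out 5 of the 8 arrays in turn. Trh, thyrotropin-releasing hormone, was at 9.57, 10.02, 9.78 and 10.04 and then at 8.47, 8.58, 8.36 and 8.63, a difference of -1.35 ± 0.16. Spink1, a secreted protease inhibitor, fell by 0.73 ± 0.10. Sox17 (-0.55), Foxa2 (-0.14), Foxa3 (-0.26) and the E-cadherin gene Cdh1 (-0.51) were not called, and the median was -0.05. In the neural tube list 0 genes rose, with Pax6 at 0.22, Sox1 at 0.10 and Neurog2 at 0.25.

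Further large differences lay outside the lists. Gfra3, a receptor subunit for GDNF-family ligands, fell by 1.51 ± 0.10, from 12.23, 12.39, 12.24 and 12.40 to 10.59, 10.87, 10.83 and 10.91. Sh3gl3, an endophilin of vesicle uptake, fell by 1.42 ± 0.07, the fatty acid binding protein gene Fabp7 by 1.31 ± 0.18 and the carbonic anhydrase gene Car3 by 1.20 ± 0.22. Among rises, Lrrn3, a leucine-rich repeat membrane protein, was at 6.56, 6.46, 6.53 and 6.41, with 2 of 4 arrays above background, and then at 8.33, 8.23, 8.29 and 8.07, a difference of 1.74 ± 0.05 (3.70 with the processed signals). Fam181b rose by 1.02 ± 0.08, Rprm by 1.05 ± 0.23 (other probe 0.68 ± 0.23) and the thyroglobulin gene Tg by 0.92 ± 0.12 (other probe 0.85 ± 0.17). Ndnf rose by 0.88 ± 0.25 (other probe 0.64 ± 0.18) and Selenbp2 by 0.89 ± 0.31. Lix1 rose by 0.85 ± 0.17, but its dimmer probe, at 0.43 ± 0.21, was not called. Lrrc17 was not well above background at 4/5 somites and was at least 1.48-fold higher at 7/8 somites, with measured means of 6.19 and 6.95. Ifi204, an interferon-inducible gene, was not well above background at 7/8 somites and was at least 1.27-fold lower there.

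For some of the greatest rises a second, dimmer probe of the gene read less. Syt13, a synaptotagmin, gave 1.5 ± 0.25 against 0.17 ± 0.24, the chemokine gene Cxcl12 0.92 ± 0.25 against 0.23 ± 0.12, and the imprinted zinc finger gene Plagl1 0.97 ± 0.35 against 0.05 ± 0.13. Limch1 gave 1.02 ± 0.20 against 0.40 ± 0.08, and the copper chaperone gene Cox17 1.09 ± 0.67 against 0.33 ± 0.24. How large these rises were is therefore uncertain.

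In several lists no gene was called: replication and cell cycle (25 measured, median -0.01), ribosomal proteins (23, median -0.01), glycolysis and hypoxia (21, median 0.06), stress genes (13, median -0.02), surface ectoderm (12, median 0.02), trophoblast (9, median 0.08), neural crest (8, median 0.14) and heart and head (7 of 16, median 0.02). The mean of 1.79 for the ribosomal gene Rpl4 came from array 3 of 4/5 somites, at 5.71 against 13.29 to 13.75 on the other arrays of that stage. Of 12 cadherin and transition genes 1 rose, Cdh5, of 15 imprinted genes 1 rose, Plagl1, and of 8 germ cell genes 1 fell, Pou5f1.

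**Figure D4:**
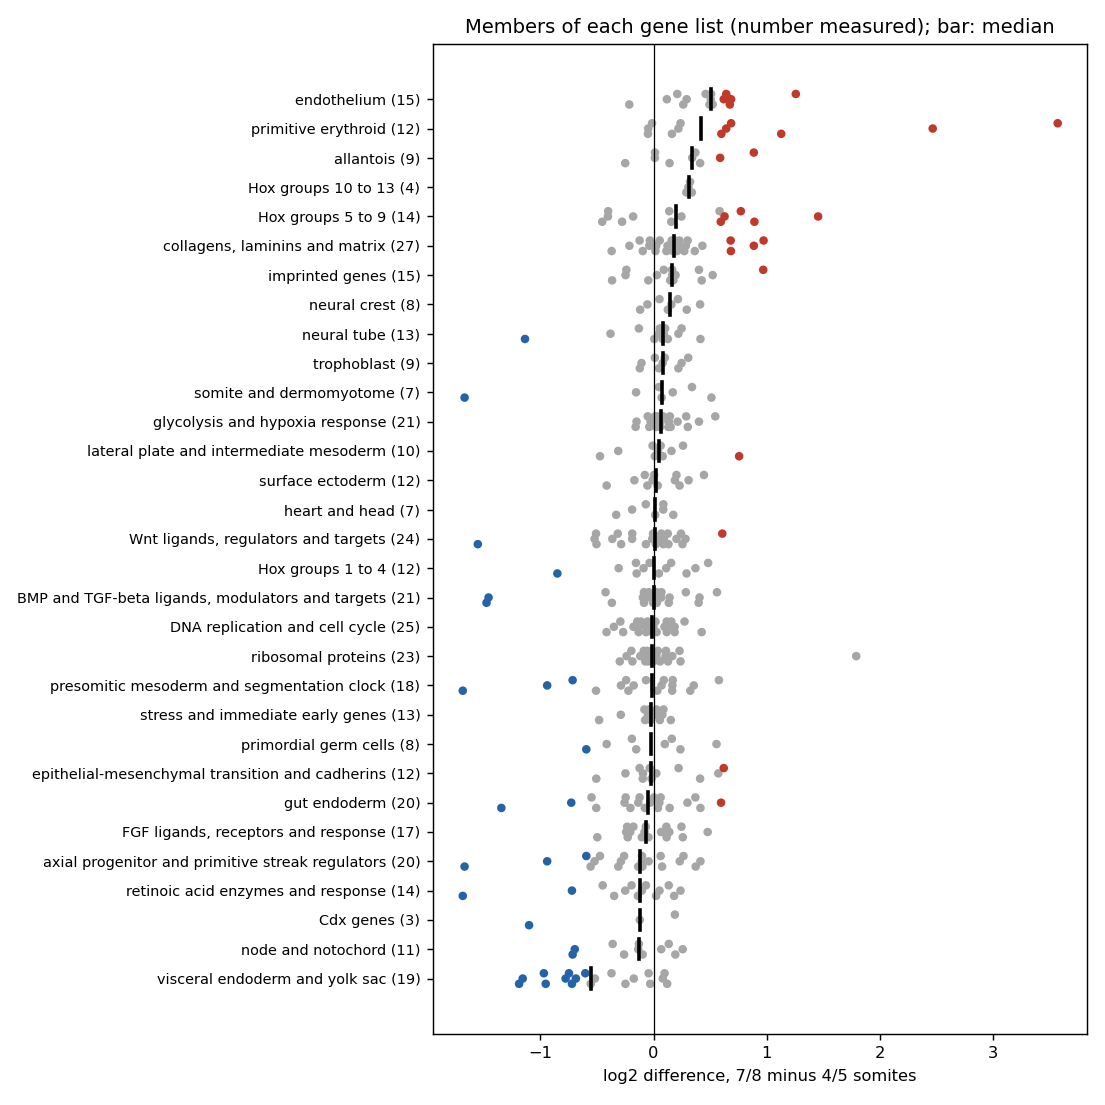
Stage difference (log2, 7/8 minus 4/5 somites) of every measured member of each list, ordered by list median, which a black bar marks; numbers in brackets count the members measured. Red members rose and blue members fell: the endothelial, red cell and allantois lists stand at the top with medians of 0.51, 0.42 and 0.34, and visceral endoderm at the bottom with -0.56.

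The null pools on the same arrays gave a stage difference of the same sign for 226 of the 241 genes called in wild type and of opposite sign for 15. Of the 241, 123 were also called in the null pools in the same direction (51% of the wild type calls and 43.2% of the 285 null calls). Both channels share spots and arrays, so a poor spot enters both and this is no independent repeat. The share of same signs over all genes was not computed, so 226 of 241 cannot be set against it. In the null pools Hbb-bh1 read 3.91 and Hba-x 2.54, beside 3.57 and 2.47 in wild type. Apoc2 read -1.58, Cubn -0.96 and Aldh1a2 -1.40 there, beside -1.19, -1.16 and -1.69. Kdr read 0.01 in the null pools against 0.68 in wild type, Lrrn3 0.44 against 1.74, Cdx1 -0.34 against -1.1 and Lefty1 -0.53 against -1.48. The Hox genes Hoxa7 (1.70), Hoxc9 (2.04) and Hoxb9 (1.44) read more in the null pools than in wild type, and the endothelial median was 0.01 there against 0.51. The 5 endothelial genes that rose in wild type did not behave alike in the null pools. Emcn read 0.96 there beside 1.26 in wild type, Cldn5 0.61 beside 0.69 and Cdh5 0.33 beside 0.62. Kdr is given above, and Tal1 read -0.24 beside 0.64. With 1 pool of each genotype and stage these differences between genotypes were not tested.

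**Figure D5:**
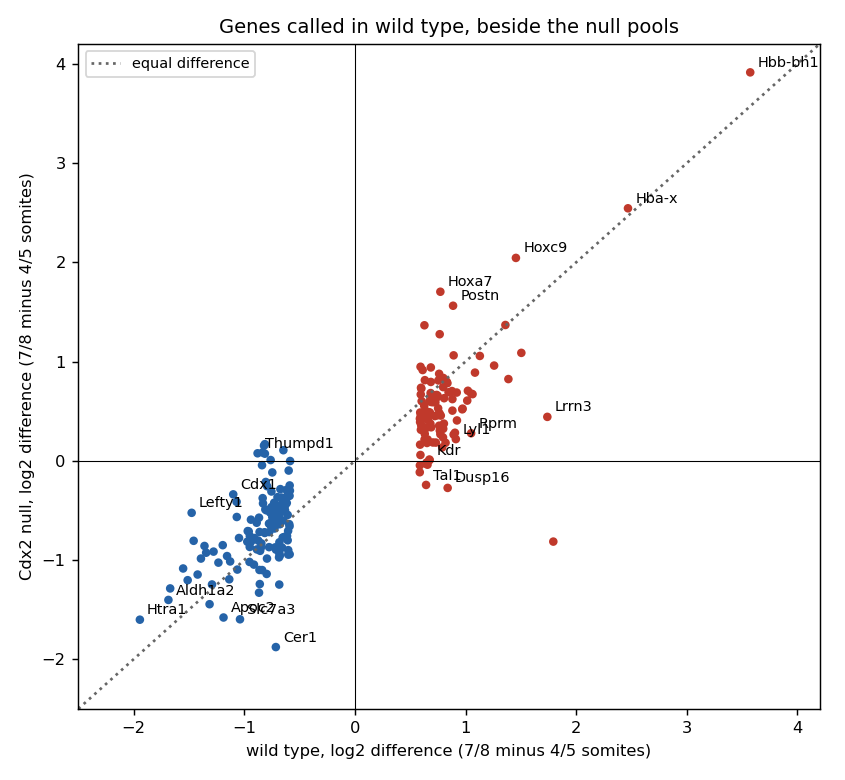
Stage difference (log2, 7/8 minus 4/5 somites) of the 241 genes called in wild type, on the horizontal axis, beside that of the Cdx2 null pools on the same arrays; the dotted line marks equal differences. Red genes rose and blue genes fell in wild type, and 15 genes lie on the opposite side of 0 in the null pools, among them Tal1.

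Of 4 sex-linked genes, chosen after the data were seen, 1 was called. Eif2s3y, on the Y chromosome, rose by 0.66 ± 0.12, from 8.88, 8.84, 9.03 and 8.67 to 9.66, 9.5, 9.53 and 9.37. Ddx3y, also Y-linked, was higher by 0.35 ± 0.14 and Kdm5d by 0.13 ± 0.10. Xist, the RNA of the inactive X chromosome, differed by -0.44 ± 0.19 at its brightest probe. The part of pool sex in the other results was not tested.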

How the data were processed

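The deposited files are scanner output: intensity of each spot and of its surroundings, not normalized, per the file headers. The labels' protocols give RNAlater storage, RiboPure extraction and linear amplification of 300 ng of RNA. The file header names Agilent Feature Extraction 10.5.1.1 and the submitters' processing notes 9.5.3. Which channel held wild type came from the labels.

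Using R 4.3.3 and its limma package (3.58.1), mean signals were corrected with normexp (offset 50), which understates changes of dim genes, then normalized by loess within arrays, with control spots at weight 0, and Aquantile between arrays. Up to 58 spots per array marked for an uneven background took their array's median background, a step chosen after seeing the data. Outlier spots were left out (1184, 0.341%), and 0 spots were saturated. Of 41174 probes, those well above background on at least 3 of 4 arrays of a stage were kept, and the brightest stood for a gene. Names came from RefSeq accessions (25253 probes) or the files. Exon and UTR positions of probes were not used here. Promoters were found for 71 of 96 named genes.

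A difference is the mean over both dyes, and its SD is that of 4 differences between arrays of the same dye and slide. The size rule was checked on simulated data with array noise only and with changes set in brighter genes alone. That check does not cover dim genes or the spread between embryos. Named genes were the 20 greatest rises and 20 greatest falls with a symbol and detected at both stages, up to 6 further each way detected at 1 stage, up to 5 called members per list, and a set of fixed regulators. Each array was left out in turn, and normalization, background, filter, call rule, slide, dye and probe choice were varied. Some named items are not reported here. The members and lists were chosen with earlier results of these data known.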

Additional observations from a re-analysis of the deposited data

Results flagged for a closer look

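Chance sets 1 array of 4 apart in about 1 in 20 groups, and the named genes were screened stage by stage. On 1 array the spot was far dimmer than on the others for Cdkn2aipnl (4/5 somites array 3, 5.88 against 10.38 to 10.60), Htra1 (7/8 somites array 4, 5.78 against 9.71 to 9.99), Nrbf2 (array 4, 5.71 against 9.99 to 10.10), Snx3 (array 4, 6.84 against 10.82 to 11.21) and Tox4 (array 4, 7.08 against 11.48 to 11.71). The null channel of these spots gave a stage difference of the same sign. Without that array Htra1 still fell, by 0.93, while the differences of the other 4 shrank to between 0.19 and 0.31 in size and were not called. In all, 11 of the 241 calls had an SD of matched differences above 1. Smaller gaps were found for Limch1 (array 4 of 7/8 somites, 9.57 against 9.76 to 9.79), Islr (array 3, 7.07 against 7.15 to 7.16), Xist (array 3, 10.09 against 9.76 to 9.78) and Kdm5d (array 1 of 4/5 somites, 7.34 against 7.14 to 7.17).

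Among the named genes 4 moved one way on all 4 matched differences in wild type and the other way on all 4 in the null pools. T read -0.26 in wild type and 0.29 in the null pools, Tbx6 -0.29 and 0.24, Msgn1 -0.22 and 0.23, and Hoxb1 -0.15 and 0.33. This difference between genotypes was not tested.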

How the results depend on the processing

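No paired analysis was possible because each stage had 1 wild type pool, and matching arrays by dye and slide pairs technical repeats only. No named gene that was called changed sign under any alternative run. Of those not called, Hes7 and Fgf8 passed to just below 0 with Cy5 channels alone and Cdx2 to 0.02 with the processed signals. Of 1904 values of named genes under alternatives, 1804 moved by less than 1 SD and 100 by more. That SD is of the gene's own 4 matched differences. Runs on 1 slide or 1 dye average part of these and could exceed it only where another probe stood for the gene. A gene with 1 poor array also has a wide SD. Htra1 ran from -3.08 to -0.81 and Cdkn2aipnl from 0.17 to 2.55, and neither was counted as moved. The count is therefore no measure of stability. Of the 241 calls, 177 were kept on leaving out each of the 8 arrays in turn. The number called was then 244 to 273, with 111 to 136 higher and 122 to 145 lower. On the same terms visceral endoderm falls numbered 9 each time, although not always with Fgb, red cell rises were 4 to 6, endothelial rises 3 to 5 and rises in Hox groups 5 to 9 were 3 to 6. With the scanner's processed signals 676 genes were called (325 higher, 351 lower, 227 shared with the 241), with 10 endothelial rises, and differences, among others, of 1.58 for Col3a1, 1.53 for Postn, 0.94 for Hoxd8, -1.24 for Pou5f1 and -1.77 for Cer1. Without background correction 161 were called, 70 of them higher, with 3 endothelial and 3 Hox rises. At 2-fold 42 were called (16 higher, 26 lower), with 2 visceral endoderm falls and 3 red cell, 1 endothelial and 1 Hox rises. On slide 1 alone there were 3 endothelial rises, and on slide 2 alone 3 Hox rises. With Cy3 channels alone 195 genes were lower, with 3 endothelial rises, and with Cy5 alone 438 were called, 276 of them higher. Keeping uneven backgrounds, chosen after seeing the data, gave 200. The cause of these differences was not tested. Low signal over background limits the sizes given for Hba-x, Lrrn3, Lefty1, Cer1, Lrrc17 and Ifi204.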

Other observations

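Other called genes, picked out after their values were seen, are given as values. They come from no list, and genes of like function that did not change were not sought. Cfap299 (-0.85), Drc1 (-0.73), Pifo (-0.70), Morn5 (-0.74) and Armc3 (-0.71) were lower at 7/8 somites. The amino acid transporter genes Slc7a8 (-1.06), Slc7a3 (-1.04) and Slc7a7 (-0.80) fell, as did the villin gene Vil1 (-0.95) and the fibrinogen chain gene Fgg (-0.86). Cfc1, a Nodal co-receptor gene, fell by 0.89, and Eras (-0.80), the DNA methyltransferase gene Dnmt3a (-0.76) and Pou3f1 (-0.65), active in early epiblast or pluripotent cells, fell as well.

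Among rises were the vessel and blood genes Cd34 (0.70), Cd93 (0.67), the connexin gene Gja4 (0.66), Esm1 (0.63) and Icam2 (0.59), and the mesenchyme genes Lum (0.81), Nr2f2 (0.80), Tcf21 (0.70) and Foxf2 (0.65).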
